A study of Mus musculus with 4 samples.

Results

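Receptors for the Fc part of antibodies, receptors of the Trem family, their signalling adaptors and the kinase Syk were followed in mouse macrophages that had met necrotic fat. The 9 genes were Fcgr1, Fcgr2b, Fcgr3, Fcgr4, Fcer1g, Trem1, Trem2, Tyrobp and Syk, taken by symbol, and all 9 were found among the 17013 genes with deposited values. The cells were wild-type bone marrow macrophages matured in M-CSF from male C57BL/6 mice, seeded on porous inserts and exposed to aNBF, an artificial necrotic bone fluid that both groups received, for 24 h. In Con, the medium below the cells was the low-fat layer of freeze-thawed mouse abdominal fat, and in Fat it was the fat-rich top layer of the same preparation. There were 2 libraries per medium, and the sources do not say whether these came from separate mice or cultures, so the p-values measure only the spread between these libraries, which may be technical. The age of the mice is not given in the sources used here. The comparison asks how the uptake of fat alters macrophages in an osteonecrotic environment.

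Macrophages bind immune complexes through Fc gamma receptors. The activating ones pair with the adaptor encoded by Fcer1g, whose immunoreceptor tyrosine-based activation motif (ITAM) is phosphorylated by Src family kinases and then recruits Syk. The receptor encoded by Fcgr2b carries an inhibitory motif instead and dampens the same pathway. Trem1 and Trem2 lack signalling tails of their own and use Tyrobp, also known as DAP12, another ITAM adaptor that recruits Syk. Trem2 binds lipids and lipoproteins and is known from lipid-laden macrophages of fat tissue and from microglia, whereas Trem1 is known for amplifying inflammatory responses.

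The stretches of genome in front of the Fc gamma receptor genes are shown because interferon-driven transcription of such genes is classically placed there, and because these receptors carry the results that follow. Each runs from 250 bases before to 50 bases after the RefSeq start of transcription, in the build GRCm38.p6 of the RefSeq table, 5′ to 3′ on the strand of the gene. Of the 9 genes, 8 had an entry. Capitals mark matches, on either strand, to the interferon-gamma activated site (GAS, TTCNNNGAA), the core of the interferon-stimulated response element (ISRE, which has 2 copies of GAAA with any 2 bases between them) or the core of the site of PU.1, the lineage factor of macrophages (GAGGAA).
Fcgr1, chr3:96293920-96294219, minus strand: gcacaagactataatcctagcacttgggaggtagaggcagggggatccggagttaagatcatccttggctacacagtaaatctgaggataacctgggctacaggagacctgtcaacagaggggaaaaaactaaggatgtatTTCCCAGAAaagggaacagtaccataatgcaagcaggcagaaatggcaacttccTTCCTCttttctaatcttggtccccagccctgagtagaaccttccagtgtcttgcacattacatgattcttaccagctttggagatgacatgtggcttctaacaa
Fcgr2b, chr1:170976022-170976321, minus strand: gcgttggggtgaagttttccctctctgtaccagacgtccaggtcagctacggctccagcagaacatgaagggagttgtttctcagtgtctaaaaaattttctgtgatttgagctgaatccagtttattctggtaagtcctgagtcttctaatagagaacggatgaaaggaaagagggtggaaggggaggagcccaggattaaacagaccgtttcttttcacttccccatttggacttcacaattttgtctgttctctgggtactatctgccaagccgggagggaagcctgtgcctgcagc
Fcgr3, chr1:171059354-171059653, minus strand: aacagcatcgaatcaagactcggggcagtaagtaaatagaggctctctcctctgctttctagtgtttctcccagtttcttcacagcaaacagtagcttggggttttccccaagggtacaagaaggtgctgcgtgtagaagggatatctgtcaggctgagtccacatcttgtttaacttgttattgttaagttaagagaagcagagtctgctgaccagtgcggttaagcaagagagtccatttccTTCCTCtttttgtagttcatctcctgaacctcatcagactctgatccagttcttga
Fcgr4, chr1:171018676-171018975, plus strand: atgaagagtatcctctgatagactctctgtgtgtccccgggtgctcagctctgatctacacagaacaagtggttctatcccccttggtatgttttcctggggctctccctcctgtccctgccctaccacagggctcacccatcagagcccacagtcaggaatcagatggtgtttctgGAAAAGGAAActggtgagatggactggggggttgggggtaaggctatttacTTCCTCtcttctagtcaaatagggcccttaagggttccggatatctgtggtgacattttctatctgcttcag
The Fcgr1 sequence held a GAS match beginning 109 bases before the start and a PU.1 match beginning 55 bases before it. An ISRE match lay in the Fcgr4 sequence, beginning 73 bases before the start, with a PU.1 match beginning 22 bases before it. In Fcgr3, which had 2 listed starts, a PU.1 match began 6 bases before the one printed and 15 bases before the other. The Fcgr2b window held none of these 3 strings of letters. Of the windows not printed, that of Trem1 held a GAS match beginning 171 bases before the start and a PU.1 match at 162 bases, that of Trem2 a PU.1 match at 40 bases, and 1 of the 2 listed for Syk a PU.1 match at 9 bases, while that of Fcer1g held none. Among all 32851 promoters of that length in the table, 8.30% held the GAS letters, 3.44% the ISRE core and 28.3% the PU.1 core, so these matches describe the sequences and show no binding.

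The libraries held between 33573852 and 40785872 reads on genes, and 3 reads corresponded to between 0.0732 and 0.0885 CPM (reads scaled to the size of the library). Markers of macrophages were present, with 9 of 10 listed genes above 10 CPM in every library, Cd68, Adgre1 and Csf1r among them, and Cd163 between 1.01 and 2.01 CPM. Their summed level was 34458 to 36571 CPM in Con and 27354.5 to 28908 CPM in Fat. Most of that sum was Lyz2, at 28720.5 and 26819 CPM in Con and 21516 and 20347 CPM in Fat. Lyz2 was not called (limma adjusted p = 0.209), and 3 of the 10, Mertk, Aif1 and C1qa, were called lower in Fat. The 7 markers of fat cells, Adipoq and Lep among them, summed to between 0.147 and 0.160 CPM in Con, where Adipoq and Lep had 0 reads in both libraries, and between 2.46 and 4.10 CPM in Fat. Markers of other cells were summed in the same way. Those of neutrophils (7 of 8 found) summed to 360.4 to 411 CPM in Con and 351 to 352 CPM in Fat, those of dendritic cells (5 of 5) to 12.2 to 16.3 and 7.68 to 11.2 CPM, those of NK cells (4 of 4) to 1.79 to 2.01 and 0.902 to 1.50 CPM, and those of mast cells and basophils (5 of 6) to 16.0 to 17.3 and 21.1 to 21.9 CPM. Those of B cells (4 of 4) summed to 16.5 to 17.3 CPM in Con and 13.9 to 15.5 CPM in Fat, and those of osteoclasts (5 of 5) to 353 to 429 and 426 to 433 CPM. Those of fibroblasts (4 of 4) had the largest sum outside macrophages, 523 to 548 CPM in Con and 438 to 575 CPM in Fat. Col1a1 and Col1a2 made up most of it. Markers of endothelial cells (4 of 4) summed to 4.58 to 6.28 and 6.89 to 7.56 CPM. Of 4 erythroid markers only Hba-a1 was found, at 0 to 0.0267 CPM in Con and 0 CPM in Fat. In these lists Mcpt8 of basophils (adjusted p = 0.0259) and Dcstamp of osteoclasts (0.0447) were called higher in Fat. Dcn of fibroblasts was called lower (limma adjusted p = 0.0358). None of the markers found for these cell types was at 0 in all 4 libraries, and Flt3 and Xcr1 of dendritic cells had at most 3 reads in each, as did Calcr of osteoclasts. The part of these cells in the results was not tested, and in bulk RNA a smaller number of cells with a transcript and less of it per cell cannot be told apart.

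All 9 genes passed the filter of at least 0.5 CPM in at least 2 libraries, and the 12470 genes that passed it went into a two-sided limma fit of log2(CPM + 0.1), in which p was adjusted by Benjamini-Hochberg over all of them. At an adjusted p under 0.05, 4 of the 9 genes were called lower in Fat (Fcgr1, Fcgr2b, Fcgr3 and Fcer1g), against 5% of all tested genes. Syk alone was called higher, 1 of 9, against 3.99% of all tested genes. In 6 of the 9 genes both Fat libraries lay below both Con libraries, as in 26.2% of tested genes, and in 1, Syk, both lay above, as in 29.4%. The median log2 fold change (Fat minus Con) of the 9 was -0.29, and that of all tested genes was 0.01. Fcgr4, Trem1, Trem2 and Tyrobp were not called in either direction. All calls of the 9 genes depended on the mean-variance trend of the fit, which ties the spread assumed for a gene to its level. Without that trend limma called none of them, with adjusted p from 0.114 for Fcgr1 to 0.136 for Syk among those called above. It then called 0.249% of all tested genes.

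**Figure D1:**
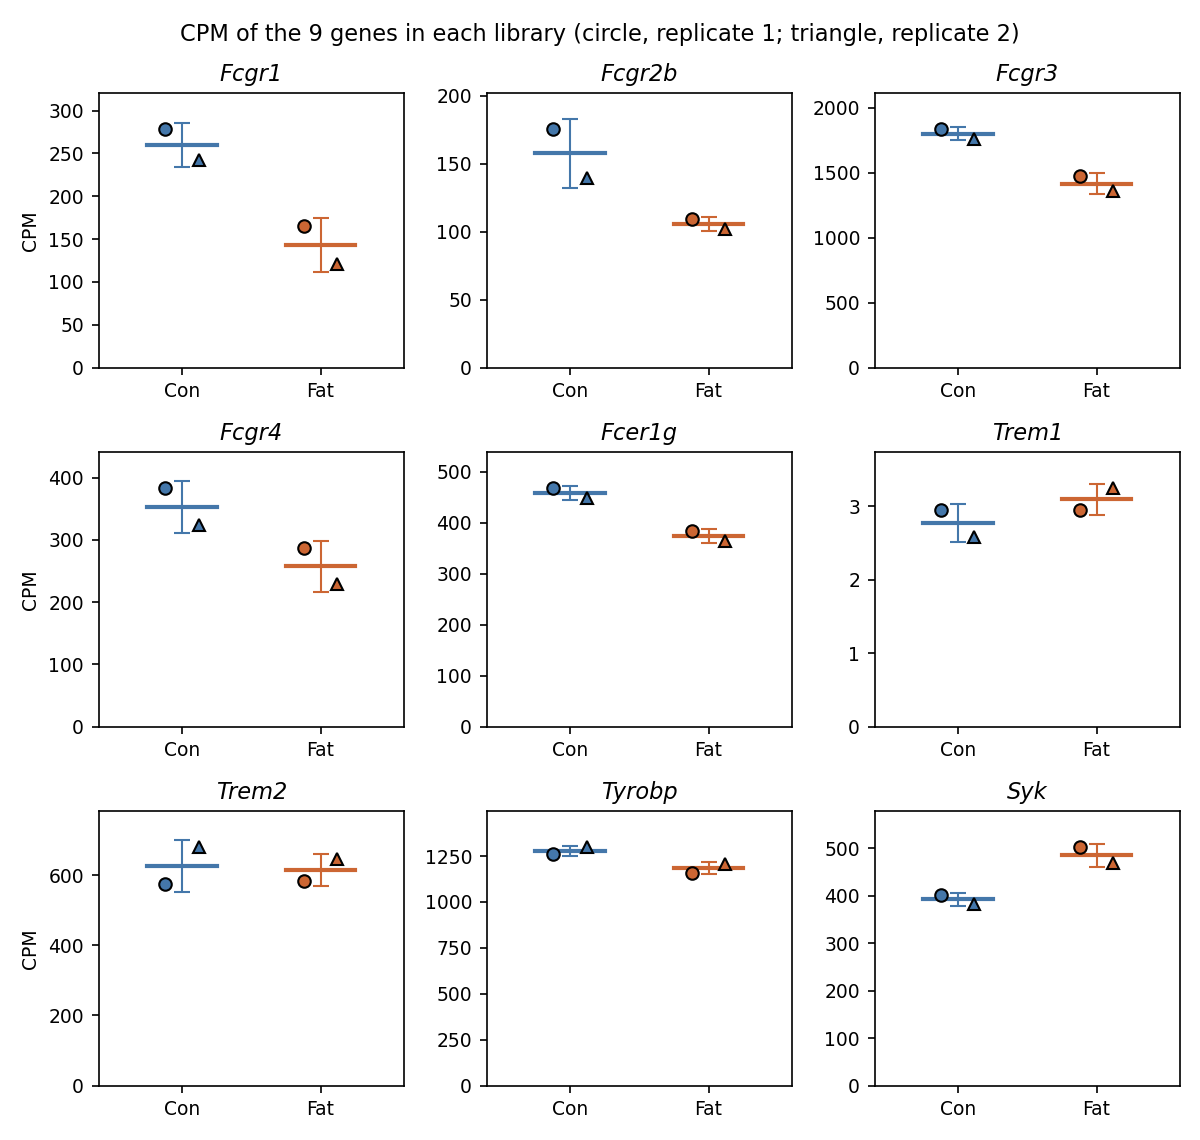
CPM of each of the 9 genes (vertical axes, from 0) in the Con and Fat libraries, with circles for replicate 1, triangles for replicate 2, bars for the mean and whiskers for the SD (n = 2). The Fat libraries lie below the Con libraries for the 4 Fc gamma receptors, Fcer1g and Tyrobp and above them for Syk, and the groups overlap for Trem1 and Trem2.

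Fcgr1, which encodes the high-affinity IgG receptor CD64, showed the largest fall of the 9 genes. Con replicates 1 and 2 held 278 and 242 CPM, and the Fat replicates, in the same order here as for every gene below, held 166 and 121 CPM. Both Fat libraries lay below both Con libraries, by at least 76.4 CPM. The means were 143 ± 31.7 CPM in Fat and 260.0 ± 25.6 CPM in Con (SD, n = 2 each), 1.83-fold lower in Fat (95% interval 1.46 to 2.30, -0.88 on the log2 scale, SE 0.14, adjusted p = 0.0123 in limma). With each library left out in turn the log2 fold change stayed between -1.10 and -0.65 and the gene was called each time, with an adjusted p of at most 0.0164.

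Fcgr2b, the inhibitory receptor, was at 175 and 139.8 CPM in Con and at 109 and 102 CPM in Fat. The Fat libraries lay close together and below both Con libraries, which were further apart. The gene fell by 0.57 on the log2 scale (SE 0.10, adjusted p = 0.0175), a mean of 106 ± 4.94 CPM in Fat against 158 ± 25.1 CPM in Con (SD, n = 2 each). It was called with each library left out, but not with the TPM values (adjusted p = 0.0513), in which reads are also scaled by gene length.

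Fcgr3, the low-affinity activating receptor, was by far the most abundant of the 4 receptors. Its level was 1834 and 1763 CPM in Con and 1471 and 1361 CPM in Fat. All 4 values kept the groups apart, with a gap of 292 CPM, and the log2 fold change was -0.35 (SE 0.08, adjusted p = 0.0356). The call was lost without Con replicate 1 (adjusted p = 0.0689), Fat replicate 1 (0.0512) or Fat replicate 2 (0.205), with the TPM values (0.0857) and without the filter (0.0669), while the fold change stayed between -0.40 and -0.29 under every alternative tried.

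Fcgr4, the receptor known as FcγRIV, which binds certain IgG subclasses with intermediate affinity, was not called. Its values were 383 and 324 CPM in Con and 287 and 229 CPM in Fat, so both Fat libraries were again the lower ones. The log2 fold change was -0.46 with a 95% interval of -0.73 to -0.18 (adjusted p = 0.0548). Leaving out a library moved it from -0.30 without Fat replicate 2 (adjusted p = 0.185) and -0.34 without Con replicate 1 (0.137) to -0.58 without Con replicate 2 (0.0121) and -0.62 without Fat replicate 1 (0.00689), the last pair being called. It was also called after rescaling by median ratios (0.0458) and by the exact test of edgeR (0.00512), but not with TPM (0.120) or DESeq2 (0.191).

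Fcer1g, the adaptor that the activating Fc receptors need for surface expression and signalling, fell with a small spread between replicates. It was at 467 and 449 CPM in Con and at 384 and 364 CPM in Fat, and the lowest Con library lay 64.8 CPM above the highest Fat library. The log2 fold change was -0.29 (SE 0.06, adjusted p = 0.0255), or 1.22-fold lower in Fat with a 95% interval of 1.11 to 1.35. It was not called without Con replicate 1 (adjusted p = 0.0669), without Fat replicate 2 (0.146) or with the TPM values (0.0899).

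The make-up of the Fc gamma receptor transcripts was compared next. Levels of different genes are compared per gene length, in TPM. The 4 receptors together summed to 4119 and 3746 TPM in Con and to 3216 and 2882 TPM in Fat. Fcgr3 made up 72.0% and 74.6% of that sum in Con and 74.9% and 77.3% in Fat, so it was the main receptor transcript in every library. The share of Fcgr1 was 5.71% and 5.35% in Con and 4.41% and 3.58% in Fat, lower in both Fat libraries. The ratio of Fcgr1, Fcgr3 and Fcgr4 together to Fcgr2b was 15.6 and 18.3 in Con and 19.6 and 18.7 in Fat. The Fat ratios lay above the Con ratios by 0.18 on the log2 scale, where the pooled SD within groups was 0.12. That difference was 0.06 without Con replicate 1 and 0.29 without Con replicate 2. An exact two-sided permutation test gave p = 0.333, the smallest it can give with 2 libraries per group.

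**Figure D2:**
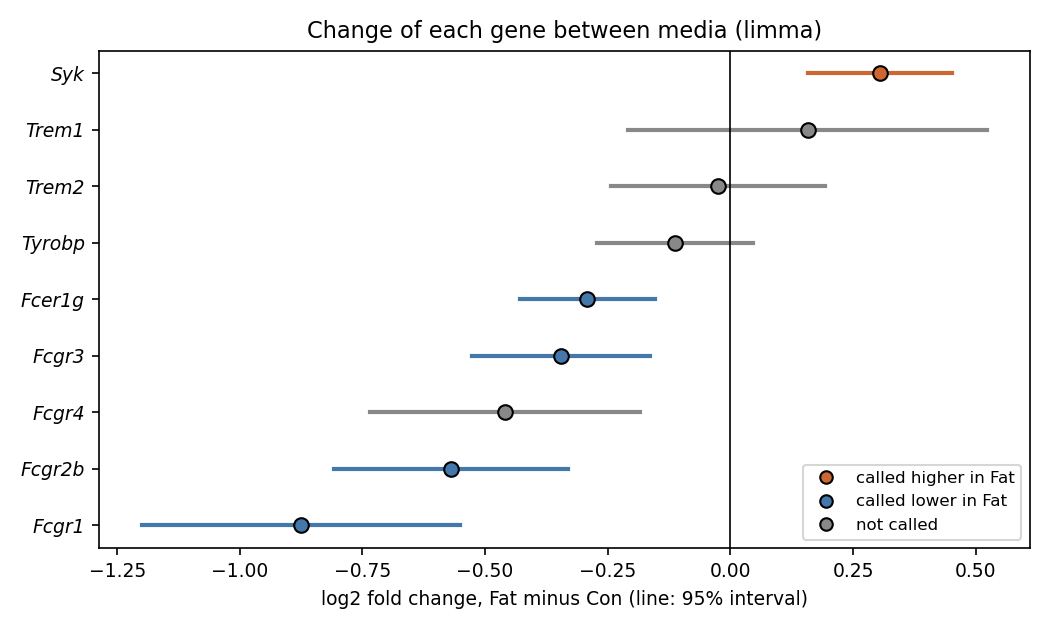
Log2 fold change of each of the 9 genes, Fat minus Con (horizontal axis), from limma, with lines for the 95% interval, blue for genes called lower in Fat, orange for called higher and grey for not called. The order runs from Syk at 0.31 to Fcgr1 at -0.88, and the intervals of Trem1, Trem2 and Tyrobp include 0.

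Trem2 was a high-level gene whose level did not separate the media. It was at 575 and 679.5 CPM in Con and at 582 and 647 CPM in Fat. The groups overlapped, with the highest and the lowest value both in Con. Its log2 fold change was -0.03 (SE 0.09, adjusted p = 0.903), and the 95% interval of -0.24 to 0.19 on the log2 scale limits what change these libraries leave possible. Trem1 was detected at a far lower level, with between 97 and 133 reads per library. It was at 2.95 and 2.59 CPM in Con and at 2.95 and 3.24 CPM in Fat (log2 fold change 0.16, 95% interval -0.21 to 0.52, adjusted p = 0.593), again with overlapping groups. The ratio of Trem2 to Trem1 in TPM was 515 and 694 in Con and 522 and 526 in Fat, and the exact two-sided permutation test gave p = 1. Of the 4 other genes of the Trem family that were measured, none was called, with log2 fold changes of 0.18 for Treml1, -0.40 for Treml2, 0.28 for Treml4, and with 19 to 34 reads per library for Trem3. Treml2 and Treml4 had Fat libraries below and above both Con libraries, respectively (adjusted p = 0.175 and 0.210).

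Tyrobp, the adaptor of both Trem receptors, was at 1260.4 and 1298 CPM in Con and at 1160.2 and 1206 CPM in Fat. Both Fat values were lower, by at least 54.6 CPM, but the log2 fold change of -0.11 was not called (95% interval -0.27 to 0.05, adjusted p = 0.368). It was called under none of the 14 alternatives, and the log2 fold change lay between -0.14 and -0.08 in them. The adaptor of the Fc receptors and that of the Trem receptors thus differed in being called or not, but whether their changes differed from each other was not tested.

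Syk, the kinase on which both adaptors converge, rose. It was at 402 and 383 CPM in Con and at 502 and 469 CPM in Fat, with both Fat libraries above both Con libraries by at least 66.2 CPM. The log2 fold change was 0.31 (SE 0.06, adjusted p = 0.0268), 1.24-fold higher in Fat with a 95% interval of 1.12 to 1.37. It was not called without Con replicate 2 (adjusted p = 0.0525) or without Fat replicate 1 (0.103), and it was called with the TPM values (0.0369).

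Per gene length, Tyrobp was the most abundant of the 9 genes at 4763 ± 170.2 TPM (SD, n = 4 libraries of both media), rank 21 among the 17013 genes. Fcgr3 followed at 2600 ± 340.2 TPM, then Fcer1g between 1227 and 1554 TPM and Trem2 between 1098 and 1272 TPM, whose ranges overlapped. Fcgr4 lay between 405 and 670.1 TPM, clear of both neighbours. Fcgr2b, Syk and Fcgr1 could not be ordered over all libraries, and their order depended on the medium. In Con, Fcgr1 (235 and 201 TPM) and Fcgr2b (248 and 194 TPM) lay above Syk (167 and 156 TPM). In Fat, Syk (211 and 197 TPM) lay above Fcgr2b (156 and 146 TPM) and Fcgr1 (142 and 103 TPM). Trem1 was last at 2.13 ± 0.222 TPM, rank 10823.

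**Figure D3:**
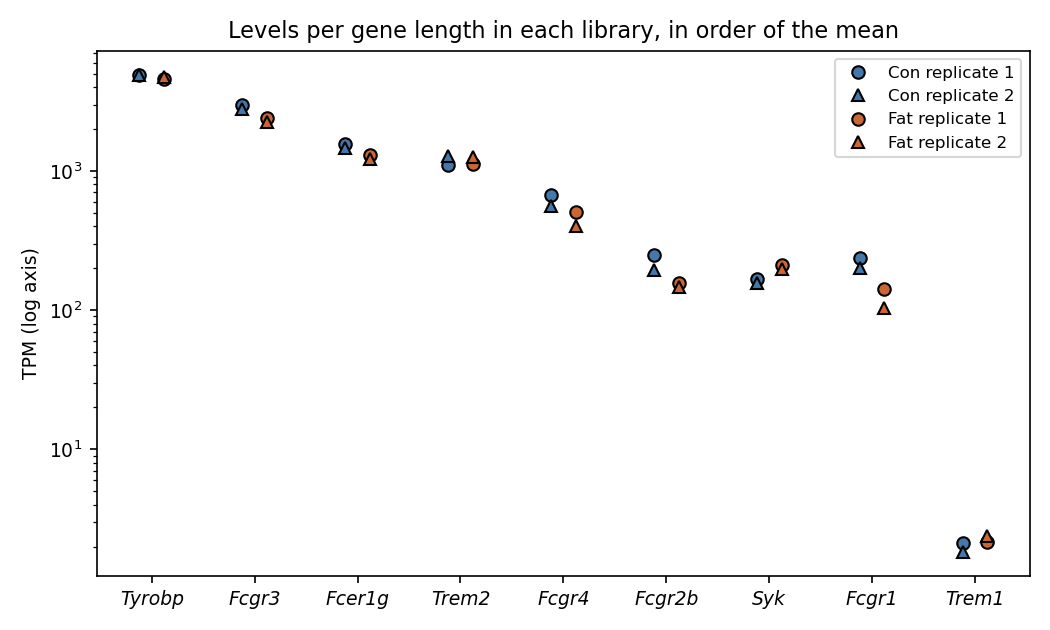
TPM of the 9 genes on a log axis, in order of their mean over the libraries, blue for Con and orange for Fat, with circles for replicate 1 and triangles for replicate 2. Tyrobp is at the top near 4763 TPM and Trem1 at the bottom near 2.13 TPM, and the Syk points lie below those of Fcgr2b and Fcgr1 in Con and above them in Fat.

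Near-identical copies can split reads between genes. Of the 75-base stretches in the GENCODE vM21 transcripts, 94 were identical between Fcgr2b and Fcgr3, which is 1.63% of the stretches of Fcgr2b and 5.42% of those of Fcgr3. Counting repeats on either strand, Fcgr2b shared 5.43% of its stretches with any other gene, and the 7 genes other than Fcgr2b and Fcgr3 shared 0. An antisense gene, Gm38204, overlaps Fcgr2b in that annotation. The library kit keeps the strand, but whether the counting used it is not given in the sources used here, so reads from the antisense gene cannot be told apart from those of Fcgr2b.

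The 3 tested genes whose values over the 4 libraries ran closest to those of Fcgr1, by Euclidean distance of centred log2(CPM + 0.1), were Ube2l6, an enzyme that attaches the interferon-induced modifier ISG15, at 0.03, Cd274, the gene of PD-L1, at 0.05, and Pnp, purine nucleoside phosphorylase, at 0.06. Their log2 fold changes were -0.86, -0.83 and -0.84. In all, 81 of 12469 genes lay within a distance of 0.25 of Fcgr1. Those closest to Syk were Cav2 at 0.01, Prkab2 at 0.02 and Tmeff1 at 0.02, with 2473 genes within 0.25. This distance depends on the size of a change, and that of Syk was small. The 2473 can therefore include genes that changed less than Syk, and their number is not comparable with the 81 for Fcgr1. With 4 libraries these distances are a description.

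Around the 9 genes, 7 lists of related genes were counted. They held 119 testable genes, of which 14 fell and 5 rose in Fat, against 5% called lower and 3.99% called higher among all tested genes. Each list is described by its counts and its median log2 fold change, beside the median of 0.01 over all tested genes. No list was tested as a set. For counts at an unadjusted p under 0.05, the share of all tested genes at that threshold is not given here. Those counts are therefore not comparable with the 5% and 3.99%, and no skew is read from them.

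One list held 20 tested genes, receptors that use Tyrobp, Fcer1g or the related adaptor Hcst, with Hcst itself and the signalling chain Cd247. Of these 20, 3 were called lower and 0 higher (median -0.11). At an unadjusted limma p under 0.05, 9 were lower and 1 higher, and edgeR and DESeq2 also called 0 higher, while 1 was called higher without Con replicate 1. Clec4e, the Fcer1g-coupled receptor Mincle that binds mycobacterial cord factor and other glycolipids, was at 16.5 and 12.6 CPM in Con and 6.94 and 5.90 CPM in Fat. On the log2 scale it fell by 1.16 (SE 0.15, adjusted p = 0.00611), larger in size than that of any of the 9 genes. Clec5a, a Tyrobp-coupled lectin of myeloid cells, was at 41.8 and 40.2 CPM in Con and 24.8 and 22.3 CPM in Fat, which is -0.80 in log2 (adjusted p = 0.00316). For both genes the groups lay far apart, and both calls held with each library left out. Pilrb1, an activating paired receptor, had a log2 change of -0.72 (adjusted p = 0.0246), but was not called without Con replicate 1 (0.0832). Csf1r, the receptor for the growth factor M-CSF, was not called at -0.21 (adjusted p = 0.190). The receptors called lower included ones that pair with Tyrobp, which itself was not called.

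Of 7 tested antibody receptors and Fc receptor-like genes outside the classical Fc gamma group, 2 were called lower and 0 higher (median -0.09). Unadjusted, 3 were lower and 0 higher, and edgeR and DESeq2 called 0 higher. Trim21, the cytosolic antibody receptor and ubiquitin ligase, was at 39.5 and 38.6 CPM in Con and 27.1 and 23.0 CPM in Fat (log2 fold change -0.64, adjusted p = 0.00760). Fcrls, an Fc receptor-like scavenger receptor, was at 9.94 and 13.0 CPM in Con and 4.88 and 6.76 CPM in Fat (log2 fold change -0.98, adjusted p = 0.0211). In both, each Fat library lay below each Con library.

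The kinases that act next to the ITAM gave 1 gene called lower of 12, Fgr, and 0 called higher by limma, edgeR or DESeq2 (median -0.16, unadjusted 4 lower and 1 higher). Fgr, a Src family kinase of myeloid cells, was at 29.6 and 25.9 CPM in Con and 20.1 and 21.5 CPM in Fat, which is -0.41 in log2 (adjusted p = 0.0292). That call held under 9 of 14 alternatives and was lost with the TPM values (limma adjusted p = 0.0791). It was also lost without Con replicate 1 (log2 fold change -0.32), Fat replicate 1 (-0.36) or Fat replicate 2 (-0.46). The more abundant Src family kinase Lyn, at 199 to 244 CPM, had a log2 fold change of -0.20 and was not called (adjusted p = 0.0890). Syk was thus called in the other direction from the one kinase of this list that passed the test.

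Downstream of Syk, 3 of 26 tested adaptors and effectors were called higher and 1 lower (median 0.02). Vav3, a guanine nucleotide exchange factor, was at 52.4 and 52.5 CPM in Con and 72.9 and 75.8 CPM in Fat (log2 fold change 0.50, adjusted p = 0.00440). Lat, an adaptor best known from T cells, was at 6.25 and 8.98 CPM in Con and 13.2 and 14.6 CPM in Fat (log2 fold change 0.88, adjusted p = 0.0206), and was not called without Fat replicate 2 (0.0562). The markers of T cells (5 of 6 found) summed to 5.54 to 6.40 CPM in Con and 3.17 to 3.56 CPM in Fat. Which cells the Lat reads came from was not tested. Malt1, a subunit of the complex that links Card9 to NF-κB, rose by 0.36 in log2 (adjusted p = 0.0211), a call lost without Con replicate 1 (0.0567) or Fat replicate 2 (0.0759). Pik3cd, the catalytic subunit of the leukocyte PI3 kinase delta, was at 145.7 and 149.5 CPM in Con and 115 and 108 CPM in Fat (log2 fold change -0.41, adjusted p = 0.00760). The 4 called genes therefore moved in both directions, and 22 of the 26 did not pass the test.

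Among 26 tested inhibitory receptors and brakes of ITAM signalling, 5 were called lower and 1 higher (median -0.05). Ptpn6, the phosphatase SHP-1 that inhibitory receptors recruit, was at 462 and 446 CPM in Con and 289 and 269 CPM in Fat. Those libraries were well apart, and the log2 fold change was -0.70 (SE 0.06, adjusted p = 0.00286), called with each library left out. Clec12a, an inhibitory lectin receptor for uric acid crystals, showed a log2 change of -0.62 (adjusted p = 0.00466), and Sla, an adaptor that lowers receptor levels, one of -0.56 (0.00506). Pilra and Lair1, both inhibitory receptors, fell by 0.39 (adjusted p = 0.0236) and by 0.45 (0.00910). Lair1 was called with each library left out and with TPM, whereas Pilra was not called with TPM (0.0668) or without Con replicate 1 (0.0654), Fat replicate 1 (0.0520) or Fat replicate 2 (0.0578). DESeq2 and the exact test of edgeR called 8 and 9 genes of this list lower, against 4.77% and 7.44% of all tested genes. Cd300a, an inhibitory receptor for phosphatidylserine and phosphatidylethanolamine, rose from 302 and 303 CPM in Con to 424 and 412 CPM in Fat (log2 fold change 0.46, adjusted p = 0.00469). Together with Fcgr2b, genes of the inhibitory side were thus among those called lower, as were genes of the activating side.

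For Trem2, its ligands and the enzymes that shed it, 5 of 8 listed genes passed the filter and limma, edgeR and DESeq2 called 0 in either direction, with 1 lower and 0 higher at an unadjusted limma p under 0.05. Apoe, a lipoprotein that binds Trem2, was not called at 0.07 in log2 (adjusted p = 0.832). Of 23 genes described elsewhere as needing Trem2 in lipid-associated macrophages or microglia, 1 was called higher and 2 lower (median -0.05). The quasi-likelihood test of edgeR also called 1 higher, against 3.93% of all tested genes. The exact test of edgeR and DESeq2 each called 3 higher, adding Ctsl and Cd36, against 5.71% and 3.66% of all tested genes. Plin2, which coats lipid droplets, was at 1324 and 1390.4 CPM in Con and 3818 and 3703 CPM in Fat. This was the largest log2 fold change of the lists, at 1.47 (SE 0.08, adjusted p = 0.000541), called under every alternative. Fabp5, a fatty acid binding protein, was at 1349.5 and 1419 CPM in Con and 1066 and 1045 CPM in Fat (log2 fold change -0.39, adjusted p = 0.0165) and was not called without Fat replicate 2 (0.0769). Ccl6, a chemokine, was lower by a log2 change of -0.65 (adjusted p = 0.0336) and was called under 9 of 14 alternatives. It was not called with the TPM values (limma adjusted p = 0.0749) or without the filter (0.0632). Nor was it called without Con replicate 1 (log2 fold change -0.59) or without Fat replicate 2 (-0.46). In limma, Cd36, a fatty acid scavenger receptor, was at 0.36 on the log2 scale and Ctsl, a lysosomal protease, at 0.35 (adjusted p = 0.163 and 0.1496), both with each Fat library above each Con library. Gpnmb, Spp1 and Lpl, also not called, were at -0.05, -0.28 and 0.16. In limma, 20 of these 23 genes did not pass the test.

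**Figure D4:**
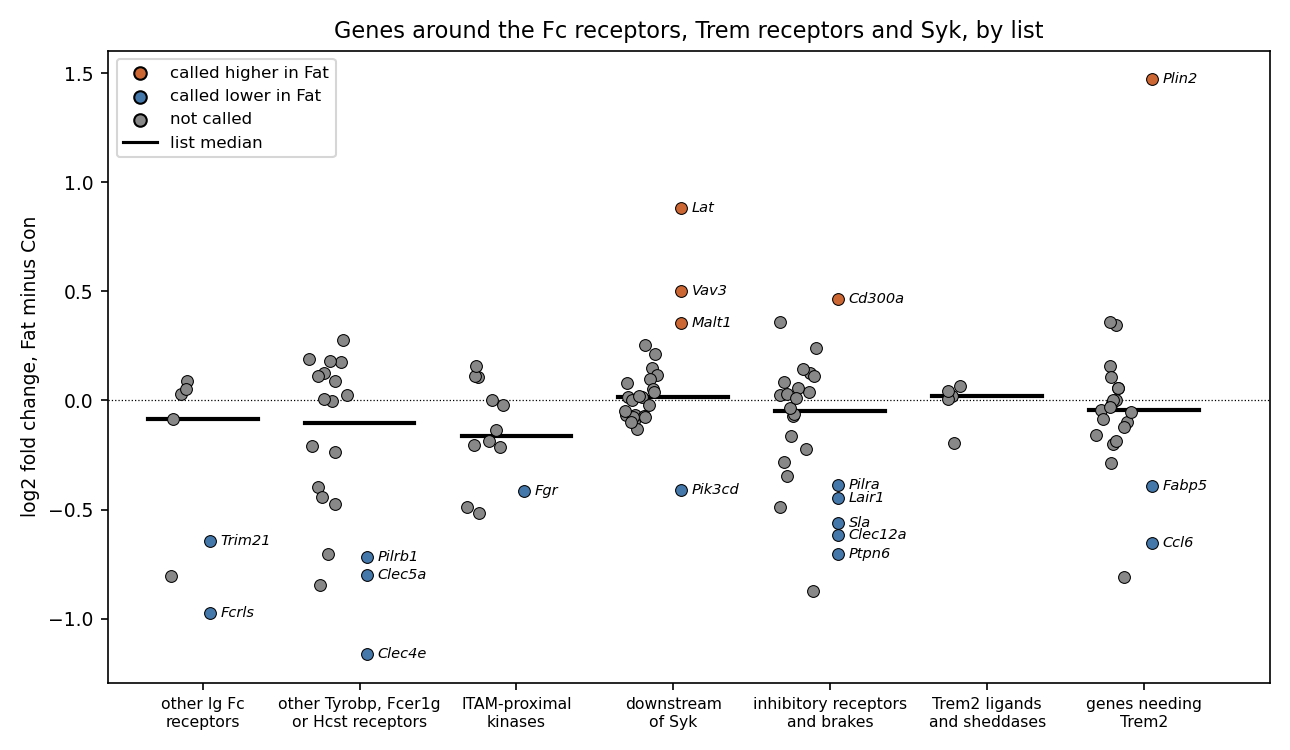
Log2 fold change, Fat minus Con, of each tested gene (points) in the 7 lists of related genes, with a bar for the list's median, orange for genes called higher, blue for called lower and grey for not called. Plin2 stands at 1.47 and Clec4e at -1.16, and the list medians lie between -0.16 and 0.02.

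**Figure D5:**
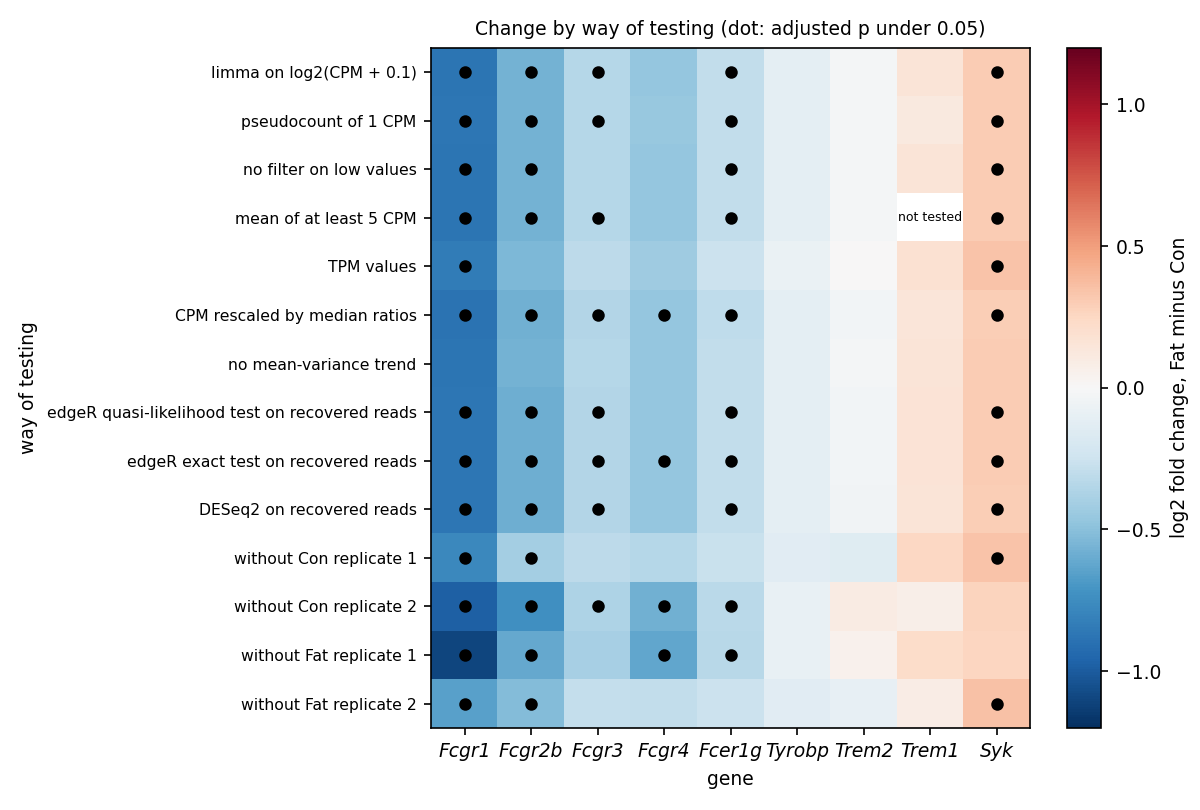
Log2 fold change of each of the 9 genes (columns) under 14 ways of testing (rows), as colour, with a dot where the adjusted p was under 0.05. Fcgr1 carries a dot in all rows except the one without the mean-variance trend, Fcgr4 in few, and Trem1, Trem2 and Tyrobp in none.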

How the data were processed

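RNA was sequenced from macrophages of 4 libraries, 2 per medium, grouped by their labels. The authors deposited, per gene, CPM (reads scaled to the library total, here also by a factor of 0.990 to 1.01 per library) and TPM (also scaled by gene length). The submitters' processing notes name the build GRCm39, and the aligner, the counter and its strand setting are not given in the sources used here. The deposited CPM were whole multiples of 1 read for 100% of values (tolerance 0.01 reads), and the totals recovered were 33573852 and 37881292 reads in Con and 37534565 and 40785872 reads in Fat, where 1 read is worth 0.0244 to 0.0295 CPM. Genes under 0.5 CPM in all libraries but 1 were left out. limma 3.58.1 in R 4.3.3, with a mean-variance trend, was run on log2(CPM + 0.1), and fold changes on that scale understate those of low genes. Standard errors and 95% intervals are limma's.

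Alternatives were a pseudocount of 1 CPM, other filters (none, or a mean of 5 CPM or more), TPM in place of CPM, another scaling, no trend, a replicate block, edgeR 4.0.16 and DESeq2 1.42.0 on the recovered reads, and each library left out in turn. A fit that leaves a medium with 1 library takes its spread from the other medium. The pipeline was tested on simulated data. With 2 libraries per medium an exact permutation test cannot go below p = 0.333.

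The 9 genes and the lists were chosen with earlier results of these data known. Named from each list were the 3 called genes with the largest change and up to 2 called in the opposite direction, and for Fcgr1 and Syk the 3 nearest genes. Malt1, Pilra, Lair1, Cd36, Ctsl, Lyn, Csf1r, Apoe, Gpnmb, Spp1, Lpl and the Treml genes were named after their values were seen. Symbols were matched through RefSeq synonyms where needed (Fcmr, Lilrb4a and Adgre1). Promoters are from RefSeq (GRCm38.p6, a build other than that of the files, so their positions were joined to no value), and shared stretches from GENCODE vM21. Limits from counting reads cover counting error only.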

Additional observations from a re-analysis of the deposited data

How the results depend on the processing

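The direction of change was the same as reported in 122 of 125 values of the 9 genes over 14 alternatives, and the 3 exceptions were all of Trem2. All alternatives reused the same libraries. Those that altered only the filter, the block or the trend cannot move the fold change of a gene, so their agreement in direction was fixed in advance. Of the 9 genes, 4 were called lower and 1 higher in Fat. With the TPM values 1 was called lower, and without the mean-variance trend 0 lower and 0 higher. With each library left out, 2 to 5 were called lower and 0 to 1 higher. Over all tested genes, the 498 higher and 624 lower calls became 425 and 366 with TPM, 19 and 12 without the trend, 332 and 334 without Con replicate 1, and 216 and 313 without Fat replicate 2. Of the 119 genes of the lists, 5 were called higher and 14 lower, and 1 and 0 without the trend. The exact test of edgeR called 9 higher and 22 lower, against 5.71% and 7.44% of all tested genes. The cause of these differences was not tested. The log2 difference of the activating to inhibitory ratio lay between 0.06 and 0.29 with a library left out, and that of the Trem2 to Trem1 ratio between -0.40 and 0.03. The TPM values moved the median of all genes by 0.03, and the other settings by less. With the replicate number as a block, 5 of the 9 genes were called lower and 1 higher, Fcgr4 joining at an adjusted p of 5.22e-07, 1278 genes were called higher and 1242 lower in all, and the lists gave 11 higher and 29 lower. The labels give no basis for this pairing. Each library's deviation from the mean of its medium was compared, gene by gene, between same-numbered libraries. These deviations correlated at 0.20 over all tested genes and at 0.34 over the 9760 that averaged 5 CPM or more. Among the 9 genes, Trem1 had the fewest reads, 97 to 133 per library.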
